A study of Caenorhabditis elegans with 4 samples.

Results

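The regions described here are the stretches of Caenorhabditis elegans chromosome III at which SEM-4 tagged with GFP was called as bound in L2 larvae. They are all rows of the combined region list whose chromosome is III, 1374 of 7554 regions, and the other 5 chromosomes (I, II, IV, V and X) serve as their background. Membership rests on the chromosome alone, though chromosome III was picked for description with earlier results of these data known. The same chromosome held 1044 of the 5386 regions called in ChIP replicate 1 and 603 of the 2527 called in replicate 2.

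All animals were hermaphrodites of strain OP57, which carries unc-119(ed3), a loss-of-function allele that makes worms uncoordinated, and the array wgIs57. That array was introduced by bombardment, holds sem-4::TY1 EGFP FLAG together with unc-119 as the rescuing marker, and is present in the ChIP and the input samples alike. The 4 samples are 2 ChIP libraries, made from whole larvae with an antibody to GFP, and 2 input libraries of total genomic DNA from the same kind of extract. Binding in different cells is pooled, the fusion protein comes from extra copies of the gene in 1 strain, and untagged worms were not analysed here. The labels do not say whether the numbered replicates were separate cultures, so a difference between them may be biological or technical.

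SEM-4 is the Spalt-type zinc-finger protein of C. elegans, a transcription factor related to the SALL proteins of vertebrates. It is known from genetic work for its part in the fates of touch neurons and other neurons, of vulval precursor cells and of the sex myoblast lineage. Chromosome III carries Hox genes, the patterning genes ceh-13, lin-39, mab-5 and egl-5, and genetic studies place egl-5 and lin-39 among the genes that act with or downstream of SEM-4. Autosomes of C. elegans have a gene-dense centre flanked by arms that are richer in repeats. The regions below are given by position on WormBase WS220 and were not matched to genes, since no annotation of that build was used here.

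For each region the authors deposited its ends and a q-value from PeakSeq, a caller that looks for an excess of ChIP reads over a control. Strength below means −log10 of that q-value, as the authors gave it, so a strength of 2 is the limit of q = 0.01 that all the lists respect. Neither read counts nor fold enrichments come with the lists, so the depth behind a region is unknown and more reads or more enrichment can each raise its strength. Shares of regions carry 95% Wilson intervals, which cover counting error only, and no test was run over regions, because neighbouring regions of 1 library are not independent replicates.

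Chromosome III was the chromosome most densely covered with called SEM-4 regions, in the combined list and in each replicate. The combined list had 99.8 regions per Mb of III, over a span of 13.8 Mb, against 71.5 per Mb for the other 5 chromosomes together. Replicate 1 had 75.8 against 50.3 per Mb and replicate 2 had 43.8 against 22.3 per Mb. The ratio of III to the others was thus 1.40 in the combined list, 1.51 in replicate 1 and 1.97 in replicate 2. Chromosome IV came second in all 3 lists, with 88.8, 65.4 and 33.0 regions per Mb, so III exceeded its nearest neighbour in rank by 1.12, 1.16 and 1.33 times. III made up 13.7% of the span of all chromosomes, 18.2% of the combined regions, 19.4% of those of replicate 1 and 23.9% of those of replicate 2. Bases inside combined regions amounted to 583 kb, or 4.24% of III against 3.44% of the other 5 chromosomes.

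Regions on III were present among the strongest of each list at shares near or somewhat above their share of all regions, which was 18.2% in the combined list, 19.4% in replicate 1 and 23.9% in replicate 2. They made up 11 of the strongest 50 combined regions (22.0%, interval 12.8 to 35.2%), 25 of the strongest 100 (25%, 17.5 to 34.3%) and 217 of the strongest 1000 (21.7%, 19.3 to 24.4%). The intervals at 50 and at 100 contain the share of all regions, and that at 1000 lies above it. In replicate 1 they were 11 of the strongest 50 (22.0%, 12.8 to 35.2%) and 218 of the strongest 1000 (21.8%, 19.4 to 24.5%). In replicate 2 they were 17 of the strongest 50 (34.0%, 22.4 to 47.8%), but 246 of the strongest 1000 (24.6%, 22.0 to 27.4%), close to the share of all regions. Median strength on III was 4.41 in the combined list against 3.80 elsewhere. Within the replicates the medians of III and of the other chromosomes lay close together, at 3.32 and 3.23 in replicate 1 and at 3.38 and 3.36 in replicate 2.

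A larger share of the regions on III overlapped both replicates than elsewhere. Replicate 2 also called more there, with 603 regions beside the 1374 combined ones, against 1924 beside 6180 on the other 5 chromosomes. How much of the difference in support goes with that number was not tested. Of the 1374 combined regions, 488 overlapped a region of each replicate by at least 1 bp (35.5%, 33.0 to 38.1%), against a background of 26.3% on the other 5 chromosomes. A further 467 overlapped replicate 1 only (34.0%, 31.5 to 36.5%), against a background of 37.0%. Replicate 2 only was overlapped by 83 (6.04%, 4.90 to 7.43%), against a background of 3.56%. The remaining 336 overlapped neither replicate (24.5%, 22.3 to 26.8%), against a background of 33.1%. Chromosome I had the lowest support of all, with 15.2% of its regions in both replicates. When I was left out, 28.8% of the regions on the other 4 chromosomes lay in both replicates and 30.1% in neither, and both values stayed outside the intervals for III. The closest single chromosome was IV, with 31.0% in both (28.7 to 33.3%), an interval that meets that of III.

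**Figure D1:**
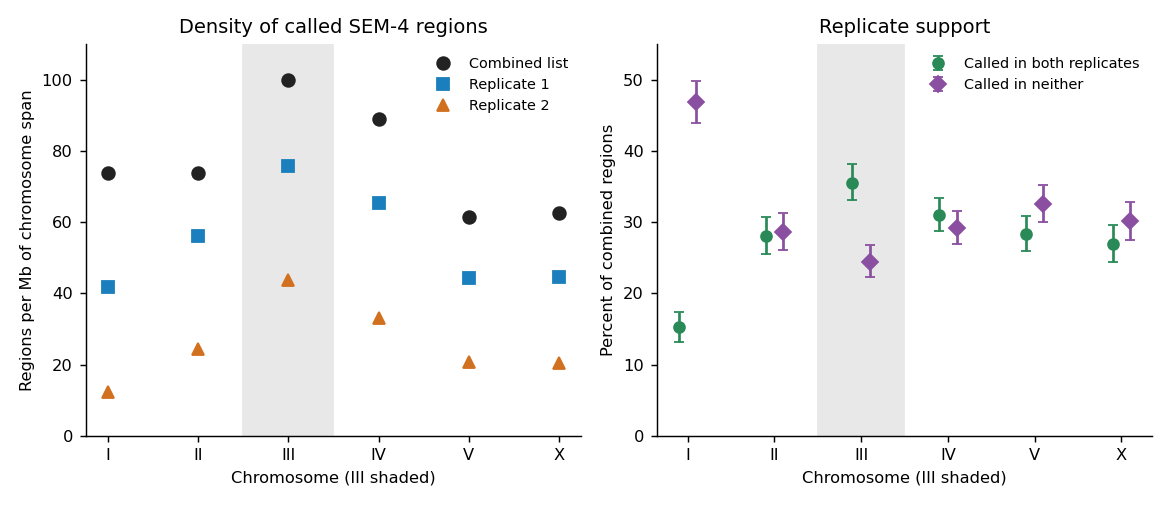
Left, regions per Mb of chromosome span (vertical axis) for each chromosome, with 1 point per list. Right, percent of combined regions called in both replicates or in neither, with 95% Wilson intervals. Chromosome III, shaded, has the highest density in all 3 lists (99.8, 75.8 and 43.8 per Mb), the highest share in both replicates (35.5%) and the lowest share in neither (24.5%).

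Seen from the replicates, III had 501 of its 1044 replicate 1 regions overlapped by replicate 2 (48.0%, 45.0 to 51.0%), against a background of 38.3%. This share depends on how many regions replicate 2 called, which was 603 beside 1044 of replicate 1 on III and 1924 beside 4342 elsewhere. The converse share was close to that elsewhere. Of its 603 replicate 2 regions, 510 overlapped replicate 1 (84.6%, 81.5 to 87.2%), against a background of 87.3% (85.7 to 88.7%), and these intervals meet. Regions seen by 1 replicate alone were weak: the 543 unshared regions of replicate 1 had a median strength of 2.74 against 5.28 for the shared ones, and the 93 of replicate 2 a median of 2.51 against 3.71.

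Support rose with strength on III in a clear order. The combined and the replicate lists rest on the same 2 ChIP libraries, so strength and support are not independent and such an order is largely built in. The strongest 135 regions on the chromosome all lay in both replicates. The first region found in replicate 1 only ranked 136, the first found in replicate 2 only ranked 304 and the first found in neither ranked 451. Regions in both replicates had a median strength of 9.99 and a median width of 480 bp, those in replicate 1 only 3.96 and 284 bp, those in replicate 2 only 3.87 and 314 bp, and those in neither 2.62 and 209.5 bp. For the same 4 kinds the other 5 chromosomes had median strengths of 10.3, 3.96, 3.99 and 2.52. Their median widths were 594, 339, 386.5 and 269 bp.

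The whole combined list was cut by strength into 4 classes of equal size, from class 1, the weakest, to class 4, the strongest. III had 28.6% of its regions in class 4 and 19.2% in class 1. Within class 4, 351 of 393 regions on III lay in both replicates (89.3%, 85.9 to 92.0%), against 84.2% (82.3 to 86.0%) elsewhere. The gap was wider in class 3, where 134 of 392 did so (34.2%, 29.7 to 39.0%), against 23.5% (21.4 to 25.7%). Chromosome I had the lowest share in both, 59.3% in class 4 and 3.33% in class 3. Chromosomes II, IV, V and X had 89.2%, 89.4%, 90.7% and 89.7% in class 4, close to the value for III. In class 3 the same chromosomes had 25.6%, 29.3%, 28.8% and 27.7%. Their intervals there, 21.0 to 30.7%, 24.8 to 34.2%, 24.1 to 34.0% and 22.5 to 33.6%, each meet that of III. In the weaker classes few regions lay in both replicates anywhere, so that share could hardly differ. The share in neither was 37.8% on III against 42.9% elsewhere in class 2, and 72.3% against 78.3% in class 1. Single chromosomes went lower than III, with 35.6% on IV in class 2 and 69.7% on X in class 1. Chromosome I had the highest share in neither, 66.4% in class 2 and 91.2% in class 1. In class 3 that share was 5.61% on III against 6.68% elsewhere. There I had 24.1%, and II, IV, V and X had 2.27%, 5.11%, 2.22% and 1.20%, each below III. Replicate 2 only was overlapped by 10.2% against 5.37% in class 2 and by 3.41% against 1.23% in class 1. In class 2, 3 of 325 regions on III lay in both replicates (0.923%), against 16 of 1563 elsewhere (1.02%), and in class 1 none of 264 did, with an upper bound of 1.43%, against 1 of 1625.

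The 12 regions of III with the lowest combined q-values were all called in both replicates and ranked between 6 and 51 among all combined regions. Their strengths ran from 59.6 to 158.4 and their widths from 381 to 5798 bp, with a median of 2030 bp. Their midpoints were spread, 6 in the central 50% of the chromosome and 6 outside it. In 11 of the 12 the strength was lower in replicate 2, with a median ratio of replicate 2 to replicate 1 of 0.681. Over all 488 regions of III in both replicates that ratio had a median of 0.771, and replicate 2 was the stronger in 138. Only 5 of the 12 were called as a single region in each replicate, and for the others the ratio uses the strongest part.

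A pair of very broad regions near the right end of the chromosome led the list. The first, from 13060632 to 13066399 (5768 bp), had a strength of 158.4 in the combined list, 101.7 in replicate 1 and 35.7 in replicate 2. Its neighbour, from 13066733 to 13072530 (5798 bp), had strengths of 157.1, 94.99 and 31.8. Only 333 bp lay between them, and they were the widest regions of the chromosome. Replicate 1 called each as a single region, of 5710 and 5735 bp, whereas replicate 2 called each in 3 parts that covered 4852 and 4723 bp. The best parts in replicate 2 reached ratios of only 0.351 and 0.335 to replicate 1, the lowest among the 12. Because replicate 2 split these regions, the ratio sets the q-value of a part against that of a whole.

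The other regions with a combined strength over 100 were more alike between replicates. The region from 8799646 to 8802744 (3099 bp) had strengths of 153.9, 53.5 and 43.0 in the combined list, replicate 1 and replicate 2, and each replicate called it in 2 parts. Another, from 12611863 to 12616392 (4530 bp), had strengths of 127.5, 76.6 and 61.6 and came in 3 parts in each replicate. Its best part, from 12612128 to 12612920, was the strongest region of III in replicate 2 and ranked 4 in that whole list. Both had a ratio of 0.80 between replicates, so the order of the leading regions differed: replicate 1 was led by the broad pair, replicate 2 by the region at 12611863.

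Narrower members of the 12 gave single regions in both replicates. The region from 4281832 to 4282972 (1141 bp) had strengths of 91.6, 60.8 and 42.9, and the region from 3866824 to 3867826 (1003 bp) had 85.4, 65.5 and 50.2. The latter was the second strongest region of III in replicate 2. At 435 bp, the region from 12904877 to 12905311 was the second narrowest of the 12 and still had strengths of 63.7, 55.3 and 33.8. The narrowest, from 7854435 to 7854815 (381 bp), had 61.2, 44.9 and 29.5.

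Of the remaining 4, the region from 8794016 to 8796197 lay 3448 bp to the left of the one at 8799646. It was 2182 bp wide and had strengths of 76.0, 39.0 and 32.1. The region from 9618894 to 9620771 (1878 bp) had 77.6, 47.2 and 30.0. The region from 832938 to 836690 (3753 bp), on the left arm, had 61.3 and 32.5 but only 12.9 in replicate 2, where its best part ranked 147. The region from 1920891 to 1921856 (966 bp) was the single one of the 12 that was stronger in replicate 2, with 59.6 in the combined list, 28.9 in replicate 1 and 32.2 in replicate 2. It ranked 81 in replicate 1 and 23 in replicate 2.

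**Figure D2:**
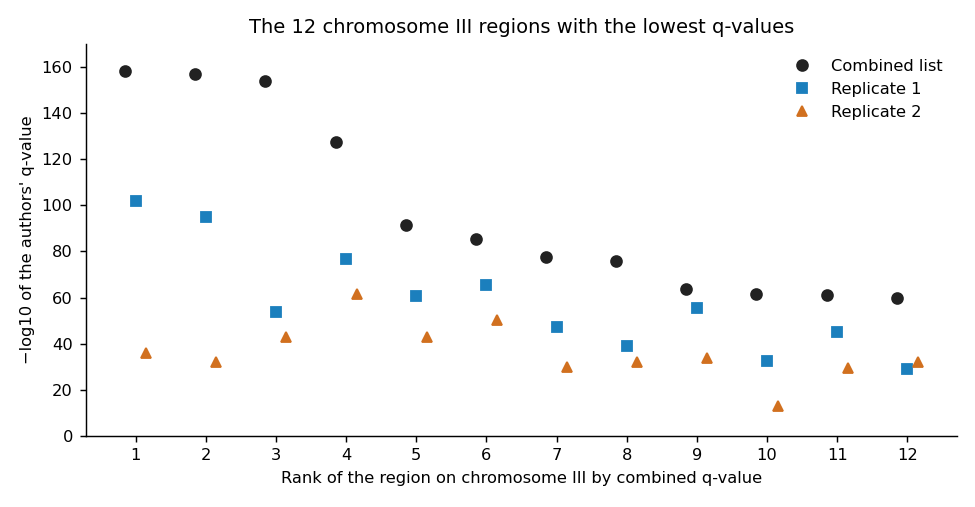
Strength (vertical axis, −log10 of the authors' q-value) in the combined list, replicate 1 and replicate 2 for the 12 regions of chromosome III with the lowest combined q-values, ordered by rank. Where a replicate split a region, its strongest part is shown. The combined value is the highest for every region, and replicate 2 exceeds replicate 1 at rank 12 only.

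Regions backed by 1 replicate or by neither were much weaker than these. The strongest in replicate 1 only were those from 8228340 to 8229768 (1429 bp, strength 15.5, and 10.9 in replicate 1), from 356398 to 358265 (1868 bp, 15.2 and 9.67) and from 7784142 to 7784367 (226 bp, 13.9 and 11.2). The strongest in replicate 2 only were those from 13546442 to 13546794 (353 bp, 8.40, and 2.94 in replicate 2), from 6929572 to 6929894 (323 bp, 7.06 and 4.40) and from 7580670 to 7580800 (131 bp, 6.38 and 2.90). With no replicate behind them, the strongest were from 7549031 to 7549114 (84 bp, 6.21), from 7375563 to 7375725 (163 bp, 5.76) and from 31436 to 31546 (111 bp, 5.13). All 3 of the last kind were under 200 bp wide, and each came from the combined data alone.

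A few replicate regions had no counterpart in the combined list. There were 64 in replicate 1 (6.13%, 4.83 to 7.75%), with a median width of 57 bp, against a background of 7.39% on the other 5 chromosomes. Replicate 2 had 7 (1.16%, 0.563 to 2.38%), against a background of 0.676%, so III was near the background in both lists. The strongest in replicate 1 were those from 12141098 to 12141238 (strength 5.01), from 13722944 to 13723141 (4.82) and from 9903385 to 9903584 (4.64). In replicate 2 they were those from 5008708 to 5008905 (2.90), from 12425703 to 12426201 (2.64) and from 5289958 to 5290140 (2.34). None of these 6 was called in the other replicate.

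Over all regions of III called in both replicates, strengths in the replicates followed each other, with lower values in replicate 2. There were 516 overlapping pairs, with a Spearman rho of 0.66 as a description across regions of the same libraries, against 0.67 over the 1702 pairs elsewhere. Strength in replicate 2 had a median of 0.769 times that in replicate 1 on III (quartiles 0.537 and 1.03), against 0.673 (0.493 and 0.891) on the other 5 chromosomes. The other chromosomes ranged from 0.613 on I to 0.718 on IV. Counted once per combined region, by its strongest parts, replicate 2 was the stronger in 138 of 488 regions on III (28.3%) and in 281 of 1628 elsewhere (17.3%). Over the pairs, median strength was 5.60 in replicate 1 and 3.76 in replicate 2 on III, against 5.83 and 3.69 elsewhere. Relative to replicate 1, replicate 2 thus gave III a larger share of its regions than it gave the other chromosomes. The ratio of strengths was also higher on III, while the replicate 2 medians themselves lay close together.

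**Figure D3:**
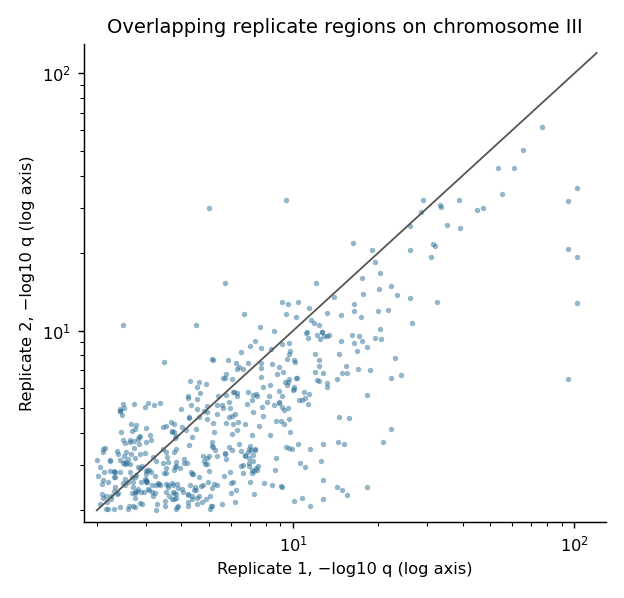
Strength in replicate 1 (horizontal) and replicate 2 (vertical), both −log10 q on log axes, for the 516 overlapping pairs of chromosome III, with 1 point per pair and the line of equality. Most points (371) lie below the line. A region split in 1 replicate gives several points at the same value of the other, as in the columns near 100.

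Among the 116 regions of III with a strength of at least 10 in a replicate, the largest departures went both ways. At 8125050 to 8126059 (1010 bp) the strength was 2.48 in replicate 1 and 10.5 in replicate 2, a ratio of 4.24. The region next to it, from 8124289 to 8124798, overlapped the same replicate 2 region and had 4.50 in replicate 1. In the opposite direction, the region from 3957761 to 3959468 (1708 bp) had 14.3 in replicate 1 and 2.46 in replicate 2, a ratio of 0.172. The region from 8443412 to 8444251 (840 bp) had 20.8 and 3.69, a ratio of 0.178. These were chosen for their size of departure after the values were seen.

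Regions on III were narrower than elsewhere, although they were not weaker. The median width was 324 bp on III and 364 bp on the other 5 chromosomes in the combined list. It was 310 and 347 bp in replicate 1, and 362 and 454 bp in replicate 2. Width rose with strength on III, with a rho of 0.66 across regions. At matched strength III stayed narrower than the other 5 chromosomes pooled: from class 1 to class 4 its median widths were 200, 263, 339.5 and 538 bp, against 234, 307, 398 and 649 bp. The other autosomes, without X, had 215, 291, 380 and 621 bp. IV alone had 186, 265, 367.5 and 577.5 bp, so it was narrower than III in class 1 and close to it in class 2. Chromosome IV was close to III, with an overall median of 331 bp, and X had the widest regions, with 451 bp.

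Along the chromosome, regions were concentrated in the centre but not symmetrically. The central 50% of the span held 839 of the 1374 combined regions (61.1%, 58.5 to 63.6%), and 60.2% and 61.7% of those in the replicates. The other autosomes had 64.8% (63.4 to 66.1%) in the combined list, an interval that meets that of III, and 70.6% (68.2 to 72.8%) in replicate 2, where the interval for III ended at 65.5%. To the left of this centre III held 203 regions and to its right 332, a ratio of right to left of 1.64, with 1.63 in replicate 1 and 1.92 in replicate 2. Only II was more lopsided to the right, with 2.07, 2.26 and 3.27.

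The span was also cut into 10 equal parts, numbered from the left. Density in the combined list was lowest in part 2, with 47.2 regions per Mb, and highest in part 5, with 135.1. The right end differed from that of the other autosomes: parts 9 and 10 of III had 89.3 and 94.4 regions per Mb, against 47.2 and 53.4. Parts 1 and 2 of III (59.6 and 47.2) were close to those of the other autosomes (57.9 and 47.0). Part 10 held 4 of the strongest 12 regions, beside 9.46% of all combined regions of III. These included the adjacent pair at 13060632 and 13066733, which lay 333 bp apart. Of the strongest 100 regions of III, 27 lay to the right of the centre described above, beside 24.2% of all regions of III.

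Between peaks in parts 5 and 7, density on III dipped in part 6 to 91.5 regions per Mb, where the other autosomes together reached their highest value of 106.8. Replicate 1 dipped there to 63.9 per Mb, between 100.2 and 93.7 on either side, and replicate 2 to 46.5, between 57.4 and 55.9. It was the part of III with the narrowest regions in every list, with medians of 254, 257 and 217 bp.

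**Figure D4:**
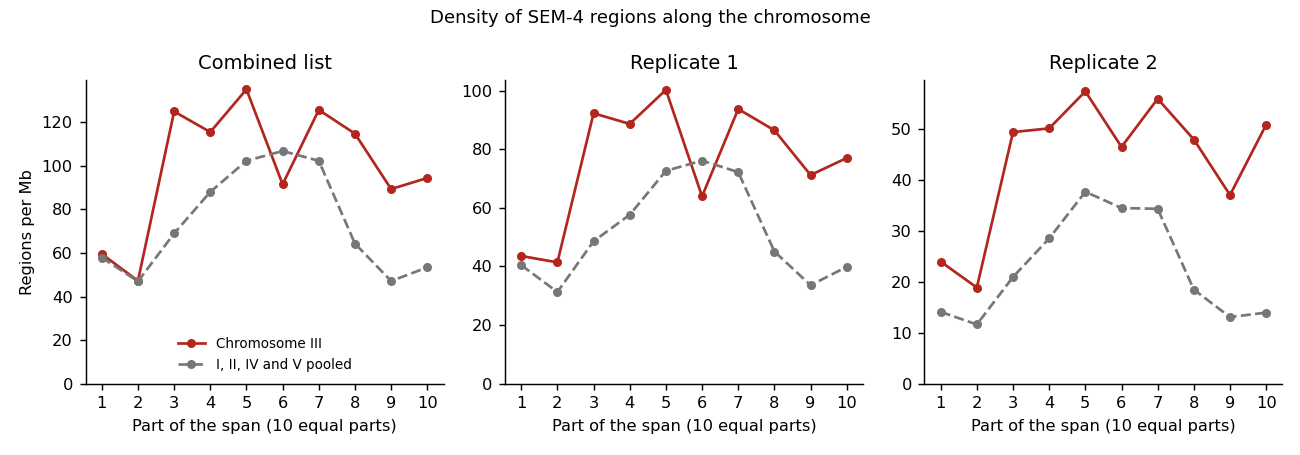
Regions per Mb (vertical axis) in each of 10 equal parts of the chromosome span (horizontal axis), for chromosome III and for chromosomes I, II, IV and V pooled, in the 3 lists. Chromosome III stays high to its right end and dips in part 6, to 91.5, 63.9 and 46.5 regions per Mb.

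The narrow regions of part 6 lay mostly in a stretch of 1 Mb, from 7 to 8 Mb, that stood apart in width. The stretch was singled out after its values were seen. Its 71 combined regions had a median width of 200 bp, and its 52 and 46 replicate regions had medians of 200 and 185.5 bp. The other windows of III had medians from 297 to 388 bp in the combined list, from 259 to 374 bp in replicate 1 and from 338 to 417.5 bp in replicate 2. Among all 1 Mb windows of the 6 chromosomes with at least 10 regions, counted from position 0, this one had the smallest median in each list: there were 102 such windows in the combined list, 102 in replicate 1 and 86 in replicate 2. The next narrowest windows had medians of 262.5, 245 and 333 bp.

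As a group the regions of this stretch were not weak, though within it the narrower ones tended to be the weaker (rho of 0.78 in the combined list). Their median strength, 6.78 in the combined list and 4.95 in replicate 1, was the highest of the same windows, and in replicate 2 it was 3.85, which ranked 18. Of the 71, 35 belonged to class 4, the strongest of the whole combined list (49.3%), against 27.5% of the other regions of III. Within that class their median width was 294 bp, against 572.5 bp for the rest of III. In class 3 it was 159 against 350 bp, over 23 regions, and in classes 2 and 1 it was 109 and 107 bp against 264 and 200 bp, over 8 and 5 regions. The same order held in each class of strength of each replicate list.

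The share in both replicates was also higher there, without matching for strength, and regions lay farther apart. Class 4, where most regions of III lay in both replicates, made up 49.3% of the window and 27.5% of the rest of III. Support at matched strength was not compared there. Both replicates backed 35 of the 71 regions (49.3%, 38.0 to 60.7%), against 34.8% (32.2 to 37.4%) of the rest of III, and 43 of 71 had a neighbour within 5 kb (60.6%, 48.9 to 71.1%), against 76.4% (74.1 to 78.7%). The window had fewer regions than its neighbours, 71 against 126 in the window before and 144 in the window after. Of the named regions, 5 lay in it: the strong narrow one at 7854435, and those at 7784142, 7580670, 7549031 and 7375563, which rested on 1 replicate or on none.

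The steps along the stretch show where its width differed. In steps of 100 kb, the median width relative to other regions of III in the same class of strength lay between 0.443 and 0.703 in all 10 steps inside the window. In the 10 steps around it, 5 on either side, it lay between 0.578 and 1.15. In the last step before 7 Mb the median width was 331 bp over 18 regions, and in the first step after it 135 bp over 3 regions, or 0.840 and 0.454 relative to the class of strength. The replicates had too few regions to show this edge, with none of replicate 1 and 1 of replicate 2 in the first step. At the 8 Mb end no clear edge was seen: the relative median was 0.510 over 6 regions before it and 0.578 over 7 after it in the combined list, and 0.692 and 0.534 over 4 each in replicate 1. With windows shifted by 0.5 Mb the contrast was smaller: the windows from 6.5 and from 7.5 Mb both had a median of 263 bp, and a window of V had the smallest median, 256 bp. In replicate 1 the narrowest shifted window was also on V, with 210 bp, and in replicate 2 it remained on III, with 269.5 bp. PeakSeq as published sets its first threshold separately in segments of each chromosome. Which segments were used for these lists is not given in the sources used here, and their part in these widths was not tested.

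**Figure D5:**
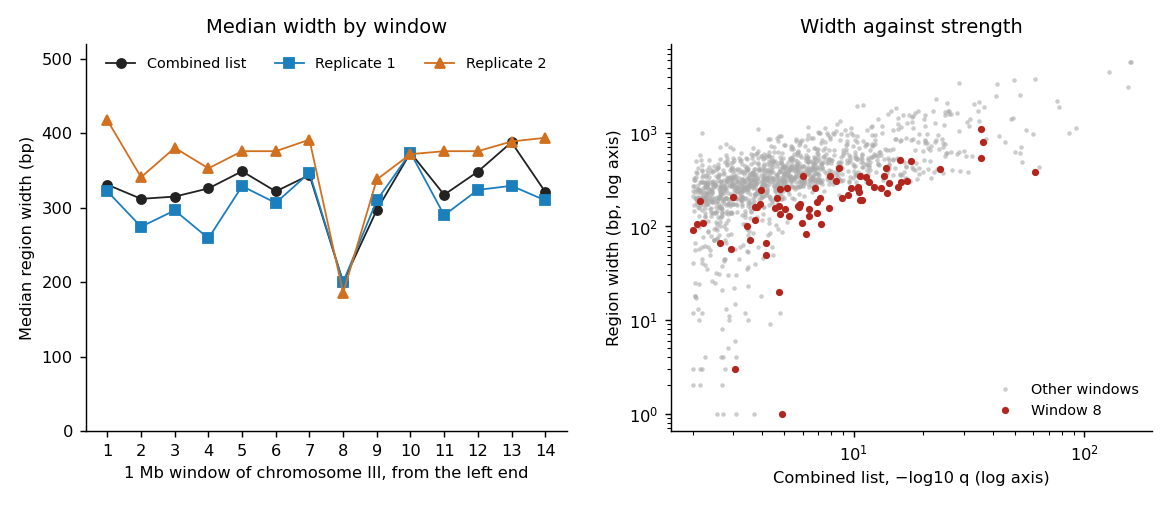
Left, median width in bp (vertical axis) of the regions in each 1 Mb window of chromosome III, counted from the left end, in the 3 lists. Right, width against strength for the 1374 combined regions on log axes, with the regions of window 8 in red. Window 8 has medians of 200, 200 and 185.5 bp, and its points lie along the lower edge of the cloud.

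Most regions on III had a close neighbour, as on the other autosomes. In the combined list 75.6% (73.3 to 77.8%) had another region within 5 kb, against 73.4% (72.3 to 74.5%) on the other 5 chromosomes, and these intervals meet. The other autosomes had 75.1%, IV had 78.2% and X had 65.6%. In replicate 1 the share was 69.5% (66.7 to 72.3%) on III, 66.5% (64.9 to 68.0%) on the other autosomes and 72.4% on IV, and in replicate 2 it was 60.0% (56.1 to 63.9%), 53.6% (51.1 to 56.0%) and 58.0%. The order of III and IV thus differed between the lists. The median gap between neighbours in the combined list was 3.74 kb on III, 3.52 kb on IV and 4.58 kb over the other 5 chromosomes. III also had more regions per Mb, and how much of the closeness goes with that density was not tested.

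Chains of regions, each within 5 kb of the next, held many of them. Chains of at least 5 regions held 469 of the 1374 regions (34.1%), against 26.8% on the other 5 chromosomes. These include X, where fewer regions had a close neighbour. Chains were not counted separately for IV or for the other autosomes. The longest on III had 15 regions over 28.2 kb, from 6339848 to 6368016, and 14 regions of replicate 1 and 8 of replicate 2 lay in it. It held no leading region: its strongest member, from 6358756 to 6360476, ranked 148 on the chromosome. The next, with 13 regions from 8780384 to 8815896, held the regions at 8794016 and 8799646 described above. A pair of chains had 12 regions each, from 3781884 to 3802302 and from 5931545 to 5958521.

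In bins of 100 kb the median number of combined regions was 10 on III and 6 elsewhere. The densest bin, at 5.9 Mb, held 23 combined regions, 17 of replicate 1 and 11 of replicate 2. The bins at 5.8, 6.3 and 9.6 Mb held 22 each. The bin at 9.6 Mb had the highest support of these, with 12 of its 22 regions in both replicates, 17 regions in replicate 1 and 15 in replicate 2. Counts per bin in the replicates had a rho of 0.83 over the 138 bins of III, and of 0.79 over the 866 bins elsewhere. Bins share libraries and local density, so these are descriptions.

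In the combined list the longest stretches without a region lay to the left on III. The longest, from 1951852 to 2089521, spanned 137.7 kb and held 1 region of replicate 2. The next were from 1284974 to 1408773 (123.8 kb), with 2 regions of replicate 1 inside, and from 2172504 to 2295661 (123.2 kb), with no region in any list. All 3 lay within parts 1 and 2 of the chromosome, the least dense part. On the other chromosomes the longest stretch without a combined region reached 367.5 kb. The replicate lists also had long gaps nearer the middle: 120.5 kb in replicate 1, from 6996082 to 7116600, and 185.7 kb in replicate 2, from 9083397 to 9269070. The longest gap of III was 203.4 kb in replicate 1 and 276.3 kb in replicate 2, both on the left.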

How the data were processed

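Chromatin immunoprecipitation with sequencing (ChIP-seq) was carried out on L2 larvae. Worms from a starved, synchronised start were kept at 20 °C, fixed in 2% formaldehyde and lysed by sonication, per the labels' protocols, and 10% of the extract was kept as input. Per the file headers, regions were called with PeakSeq and placed on WormBase WS220, and the value deposited with each region by the authors is a q-value. Comment lines of the deposited files show 2 regions of chromosome III in each list whose coordinates changed when they were carried over from another build. The PeakSeq settings, the aligner, the control of each list and the way the combined list was made were not stated. Inputs enter through the authors' calls alone.

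From the 3 lists, strength was computed as −log10 of the deposited q-value, and overlap meant at least 1 shared bp. A chromosome's span was taken to end where the last region of any of the 3 lists ends. The members, the regions named and the alternatives were chosen with earlier results of these data known. Named regions were the 12 lowest q-values on III, the 3 lowest for each kind of partial support and for each replicate's regions outside the combined list, the 3 widest, the densest 100 kb bins, the longest chains (gaps of at most 5 kb) and the longest empty stretches, ties included. The 1 Mb windows, the comparison at their edges and the largest departures between replicates were added after the data were seen. Overlaps, gaps and chains were tested on simulated lists. Tables were handled in pandas 2.3.3 under Python 3.11.15, intervals and correlations came from scipy 1.17.1 with numpy 2.4.6, and plots from matplotlib 3.10.9. No test was run over regions, depth per sample is unknown, and gene matching and sequences were left out for want of a WS220 genome here.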

Additional observations from a re-analysis of the deposited data

How the results depend on the processing

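Of 53 values recomputed under alternatives, 31 stayed within 1.5 times the reported value for a number, within its interval for a share, within 1 SD of the replicate values for a median or ratio, or within 0.05 for the rho and the ratio between replicates, and 22 moved. The number of regions on III ran from 603 to 1044 when a single replicate list was used, and the ratio of its density to the others from 1.51 to 1.97. Joining regions within 200 bp could change nothing on III, where the smallest gap in the combined list was 205 bp. Its values for III alone are counted among the 31 but could not have moved. Joining within 1000 bp and leaving out regions under 50 bp or chromosome I were chosen after seeing the data.

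The share of regions in both replicates was 29.9% with 50% reciprocal overlap, 48.3% at q of 0.001 or less and 61.8% in the strongest 50% of the combined list, and with support from a single replicate it ran from 41.6 to 69.5%. The share in neither was 32.0%, 8.61% and 2.80% under the same first 3 alternatives. Under each of these 3, III had the higher share in both, by 7.92, 8.77 and 7.94 percentage points. Its share in neither minus that of the other 5 was -6.92, -4.06 and -0.673 percentage points, the last in the strongest 50%.

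When the combined list was replaced by that of replicate 1 or replicate 2, median strength was 3.32 or 3.38, the share with a neighbour within 5 kb 69.5 or 60.0%, and, for replicate 2, median width 362 bp, median gap 10.0 kb and median width in the 7 to 8 Mb stretch 185.5 bp. Joining within 1000 bp gave a median strength of 4.58, 64.6% with a neighbour within 5 kb and 240 bp in the 7 to 8 Mb stretch. Without regions under 50 bp the median strength was 4.64. With 50% reciprocal overlap the rho between replicates was 0.71. The share in the central 50% stayed within its interval under every alternative run. The cause of these changes was not tested beyond what fewer or joined regions imply.

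No paired analysis was possible because the inputs have no region list, so ChIP and input libraries of the same number could not be compared. Depth limits all counts in an unknown way: q-values depend on the number of reads, and the lists do not record it.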
